A study of Mus musculus with 10 samples.

Results

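The genes described here are 10 mouse genes known as targets of the transcription factor NRF2 (gene Nfe2l2): Osgin1, Gclc, Gclm, Slc7a11, Txnrd1, Srxn1, Nqo1, Cbr3, Ephx1 and Hmox1. They were taken as a fixed list of names out of 22180 genes that had at least 1 probe set naming no other gene, and 11 probe sets matched them, 2 for Slc7a11 and 1 for each other gene. Livers of 5 macroH2A1 macroH2A2 double knockout mice were compared with livers of 5 wild-type mice, on 1 array each. All mice were males of the strain 129/S6 (taconic), aged 2 months, killed in mid-morning after an overnight fast of about 16 h. MacroH2A1 and macroH2A2 are histone H2A variants with a large extra domain. The labels do not say which parts of the 2 genes were deleted, nor in so many words that each sample was a separate animal, so p-values measure the spread between these samples.

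In unstressed cells the adaptor KEAP1 holds NRF2 for degradation. Oxidants and electrophiles release it, and NRF2 with a small MAF partner then binds antioxidant response elements and raises genes for glutathione, thioredoxin and detoxification. BACH1 competes for the same elements and is best known as a repressor of Hmox1. The liver relies on this response when it handles drugs, bile acids and oxidized lipids.

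Values were log2 expression levels per probe set, so a difference of 1 is a doubling. Median levels of the 10 arrays lay between 6.43 and 6.46, and correlations between arrays between 0.989 and 0.995. Macroh2a1 had levels of 9.02 to 9.18 in double knockout livers, against 9.51 to 9.66 in wild-type livers, a fall of 0.49 on the log2 scale (limma adjusted p = 0.00128). Macroh2a2 was at 5.99 to 6.44 in double knockout and 5.86 to 6.55 in wild-type livers, with means below the background guide of 6.54 given with Slc7a11, and did not differ by a called amount (limma adjusted p = 0.514). Hepatocyte markers were high on every array, with a mean over 12 markers of 12.93 to 13.00 in double knockout and 12.91 to 13.07 in wild-type livers. Pancreas acinar markers stood apart on some arrays of both groups: their mean was 8.65 and 8.87 in double knockout replicates 1 and 2 and 9.79 and 10.92 in wild-type replicates 4 and 5, against 6.08 to 6.80 on the other arrays.

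Promoter windows of 300 bases, 250 before and 50 after the gene's start, are shown for Osgin1, the member with the largest difference, and for Srxn1 and Nqo1, which differed in opposite directions. They are RefSeq sequences of the build GRCm38.p6, read 5′ to 3′ on the gene's own strand: Osgin1 at chr8:119436897-119437196 on the plus strand, Srxn1 at chr2:152105274-152105573 on the plus strand and Nqo1 at chr8:107403156-107403455 on the minus strand. Capitals mark matches on either strand to TGACTCA, the core shared by AP-1 and MAF sites, or to TGACNNNGC, the core of the antioxidant response element. The 2 motifs share their first 4 letters and can overlap.
Osgin1: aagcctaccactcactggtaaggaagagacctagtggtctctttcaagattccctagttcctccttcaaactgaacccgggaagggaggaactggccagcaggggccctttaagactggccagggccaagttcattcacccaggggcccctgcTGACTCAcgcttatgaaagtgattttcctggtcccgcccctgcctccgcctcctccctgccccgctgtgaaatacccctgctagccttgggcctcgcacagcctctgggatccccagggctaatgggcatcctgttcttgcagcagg
Srxn1: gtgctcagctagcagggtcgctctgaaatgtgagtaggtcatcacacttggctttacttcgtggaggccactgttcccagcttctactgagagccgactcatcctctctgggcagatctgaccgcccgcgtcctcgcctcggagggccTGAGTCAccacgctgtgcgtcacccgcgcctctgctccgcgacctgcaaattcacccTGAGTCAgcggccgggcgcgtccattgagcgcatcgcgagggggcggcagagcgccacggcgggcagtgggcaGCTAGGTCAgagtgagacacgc
Nqo1: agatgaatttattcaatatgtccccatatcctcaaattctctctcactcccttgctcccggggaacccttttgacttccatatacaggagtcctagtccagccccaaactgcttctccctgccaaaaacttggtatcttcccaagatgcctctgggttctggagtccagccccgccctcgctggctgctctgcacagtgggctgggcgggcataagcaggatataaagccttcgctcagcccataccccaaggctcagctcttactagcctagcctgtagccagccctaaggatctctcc
The Osgin1 window held 1 TGACTCA match, at -97 from the start. In Srxn1 there were 2, at -102 and -45, and 1 TGACNNNGC match at 28, all on the opposite strand. The Nqo1 window had neither motif, which says only that these letters are not in this window. Windows were at hand for 8 of the 10 genes. TGACTCA was found for 2 of these genes, Osgin1 and Srxn1, and in 5.2% of all 32851 windows. TGACNNNGC was found for 3, Srxn1, Gclm and Txnrd1 (in 1 of its windows), and in 12.4% of all windows. These matches describe letters, and binding was not measured.

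The 10 genes did not move as a block between the genotypes. Osgin1 and Hmox1 had higher mean levels in double knockout livers, Srxn1 a slightly higher and Nqo1 a slightly lower one, and the glutathione and thioredoxin genes Gclc, Gclm and Txnrd1 were close to level. None of the 10 was called in limma at an adjusted p under 0.05 over the 25335 probe sets tested, where 0.884% of all probe sets were called, and none at an adjusted p under 0.10, where 2.31% of all probe sets were. At an unadjusted p under 0.05 there were 4 of 10, against 15.1% of all probe sets. Of these 4, 3 were higher and 1 was lower, beside 7.52% of all probe sets higher and 7.6% lower. The members were chosen with earlier results of these data known. Mean levels were above the background guide for 8 of the 10, against 14078 of the 25335 probe sets. Means were higher in double knockout livers for 5 members and lower for 5, beside 48.5% of all probe sets higher, with a median difference of -0.004, beside -0.003 over all probe sets. The groups overlapped for every member, while 3.9% of all probe sets had groups that did not overlap. Single arrays decided part of this: Osgin1 was called without wild-type replicate 1 (adjusted p = 0.0451) and Hmox1 without wild-type replicate 4 (adjusted p = 0.00483). Hmox1 was also called without the 4 livers of high pancreas markers (adjusted p = 0.0150).

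**Figure D1:**
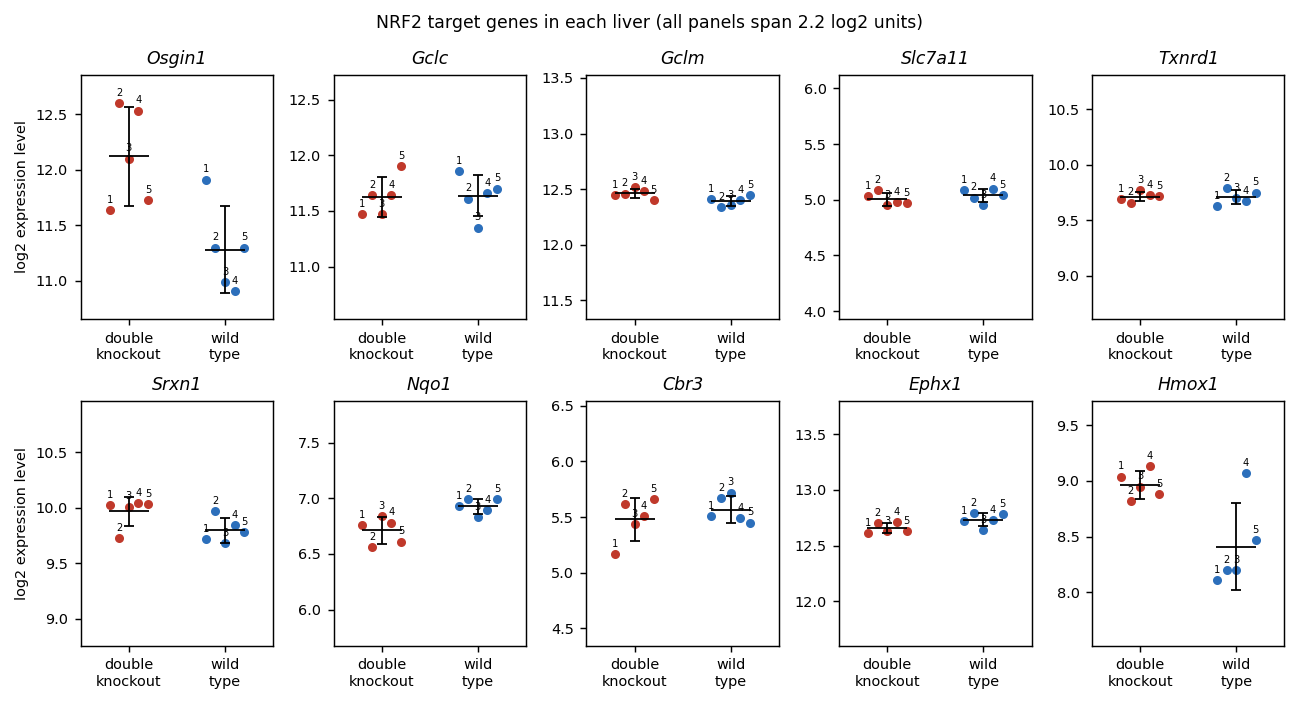
Log2 expression level (vertical axis) of each of the 10 NRF2 target genes in the 5 double knockout and 5 wild-type livers. Points are single livers with their replicate number, and bars give the mean and SD; Osgin1 and Hmox1 show the widest separation, with wild-type replicate 1 and wild-type replicate 4 reaching into the double knockout range.

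Osgin1, an oxidative stress-induced growth inhibitor gene, had the largest difference of the 10. Its levels were 11.64, 12.60, 12.10, 12.53 and 11.73 in double knockout replicates 1 to 5, against 11.91, 11.30, 10.99, 10.91 and 11.30 in wild-type replicates 1 to 5. The groups overlapped through a single wild-type liver: replicate 1 was above 2 double knockout livers, and the other 4 wild-type livers were below all of them. Osgin1 averaged 12.12 ± 0.44 in double knockout and 11.28 ± 0.39 in wild-type livers (SD, n = 5 each). The log2 difference was 0.84 (SE 0.22, 95% interval 0.36 to 1.32, limma adjusted p = 0.1004), a fold of 1.79 with bounds of 1.29 and 2.50. It lay past the 99th percentile of all probe sets' differences, which was 0.51. Without wild-type replicate 1 the difference was 0.999, and over the 10 fits that each left out 1 array it ranged from 0.721 to 0.999.

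**Figure D2:**
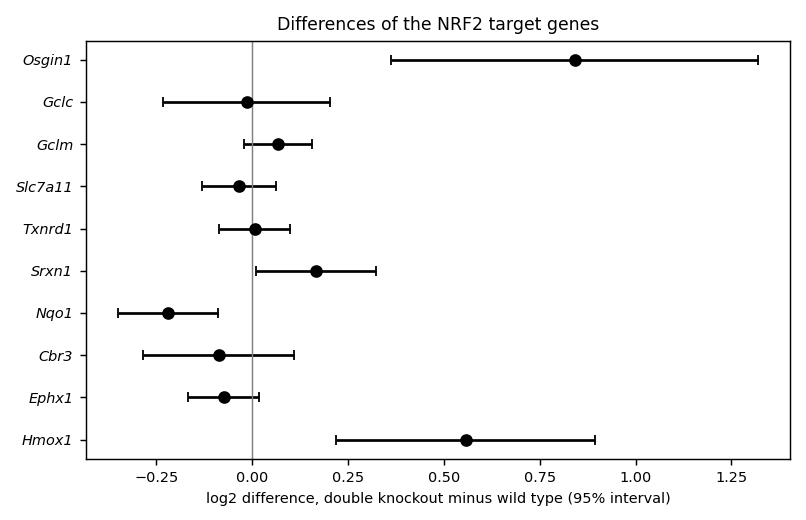
Log2 difference, double knockout minus wild type, for each member (points) with its 95% interval from limma (bars) before adjustment over probe sets. The intervals of Osgin1, Hmox1 and Srxn1 lie above 0 and that of Nqo1 below 0.

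Hmox1 encodes haem oxygenase 1, which breaks haem down to biliverdin, iron and carbon monoxide and is made by Kupffer cells as well as by stressed hepatocytes. Its levels were 9.04, 8.82, 8.95, 9.13 and 8.88 in double knockout livers, against 8.11, 8.20, 8.20, 9.07 and 8.47 in wild-type livers. The double knockout livers lay close together. Wild-type replicate 4 was above 4 of them, and the other 4 wild-type livers were below all of them. Hmox1 averaged 8.96 ± 0.13 in double knockout and 8.41 ± 0.39 in wild-type livers (SD, n = 5 each), a log2 difference of 0.56 (SE 0.15, 95% interval 0.22 to 0.89, limma adjusted p = 0.120) or 1.47-fold. Without wild-type replicate 4 it was 0.72, and without the 4 livers of high pancreas markers 0.82. Wild-type replicate 4 is 1 of these 4 livers.

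Macrophage markers and haemoglobin, like Hmox1, were higher by their means in double knockout livers. All 15 Kupffer cell and macrophage markers had a higher mean in double knockout than in wild-type livers, by a median of 0.22. Over all probe sets 48.5% were higher. Of the 15, 2 were called, the scavenger receptors Marco (limma adjusted p = 0.0475) and Cd163 (adjusted p = 0.0284), beside 0.332% of all probe sets called higher. At an unadjusted p under 0.05 there were 10 of the 15, all higher, beside 7.52% of all probe sets higher. The mean of these markers was 8.90 to 9.20 in double knockout livers and 8.65 to 8.94 in wild-type livers. The wild-type liver with the highest value, replicate 4, also had the highest Hmox1 among wild-type livers. The order was the opposite in double knockout replicate 2, which had the highest marker mean of all livers, 9.20. Its Hmox1, at 8.82, was the lowest among double knockout livers. Of the 15 markers, 0 had a mean level below background. The mean of 5 probe sets shared between haemoglobin genes was 8.61 to 8.95 in double knockout livers, against 7.50 to 8.54 in wild-type livers, and wild-type replicate 4, at 7.83, was not high in it. Each of the 5 probe sets was higher by its mean in double knockout livers, by 0.37 to 1.66, and 1 of them, shared between Hbb genes, was called (limma adjusted p = 0.0241). Of these probe sets 1 had a mean level below background. Among 3 erythroid markers on unshared probe sets the direction was split. Slc4a1, at 0.13, and Epb42, at 0.10, were higher by their means in double knockout livers, like haemoglobin, and Tfrc, at -0.26, was lower. Averaged over the 3, levels were 6.59 to 6.93 in double knockout and 6.63 to 6.91 in wild-type livers. Epb42 had a mean level below background. In limma 0 of the 3 were called (adjusted p = 0.621 for Slc4a1, 0.524 for Epb42 and 0.324 for Tfrc). Tfrc was the 1 at an unadjusted p under 0.05. In whole liver, a larger number of cells of a type and more RNA per cell cannot be told apart. The part of macrophages, of red cells or of pancreas tissue in the Hmox1 difference was not tested.

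**Figure D3:**
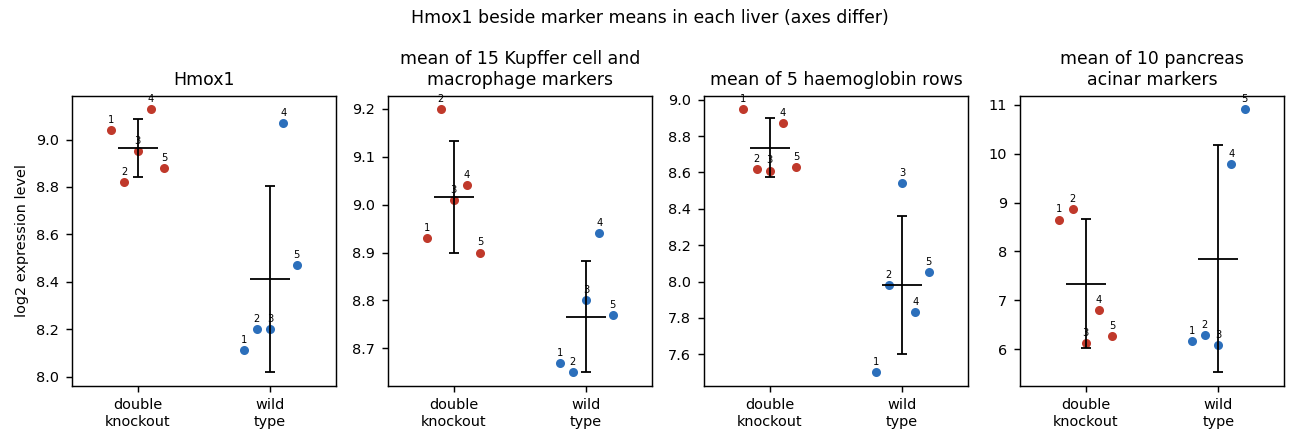
Log2 level of Hmox1 and, per liver, the mean log2 level of 15 Kupffer cell and macrophage markers, 5 haemoglobin probe sets and 10 pancreas acinar markers (vertical axes differ). Points are livers with replicate numbers, bars the mean and SD. Wild-type replicate 4 is the highest wild-type liver for Hmox1 and for the macrophage markers, and lies at 9.79 for the pancreas markers. Double knockout replicate 2 is the highest liver for the macrophage markers and the lowest double knockout liver for Hmox1.

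Other genes of haem and iron handling differed little. Of 7 measured genes in this list, 5 were higher and 2 lower by their means in double knockout livers, the median difference being 0.03, and 0 were called in limma (2 at an unadjusted p under 0.05). Blvrb, a biliverdin reductase, had a difference of 0.14 (adjusted p = 0.185) and Fech, which inserts iron to make haem, -0.11 (adjusted p = 0.292).

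The genes of glutathione synthesis showed no difference between the genotypes as large as that of Osgin1. Gclc, the catalytic subunit of glutamate-cysteine ligase, the rate-limiting enzyme of glutathione synthesis, had levels of 11.47, 11.64, 11.47, 11.64 and 11.90 in double knockout livers, against 11.86, 11.61, 11.35, 11.66 and 11.70 in wild-type livers. The groups overlapped throughout, and Gclc averaged 11.62 ± 0.18 in double knockout and 11.64 ± 0.18 in wild-type livers (SD, n = 5 each). Its log2 difference of -0.01 had a 95% interval of -0.23 to 0.20 (limma adjusted p = 0.968). Gclm, the modifier subunit of the same enzyme, was at 12.45, 12.46, 12.52, 12.48 and 12.40 in double knockout livers, against 12.41, 12.34, 12.36, 12.40 and 12.45 in wild-type livers. Its groups overlapped and its difference was 0.07, with an interval of -0.02 to 0.16 (limma adjusted p = 0.476). Differences beyond 1.11-fold for Gclm and 1.15-fold for Gclc thus lie outside these intervals on the upper side.

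Slc7a11, the cystine importer that feeds glutathione synthesis, gave little signal in liver. Its 2 probe sets had levels of 4.95 to 5.09 and 4.20 to 4.40 in double knockout livers, against 4.95 to 5.10 and 4.18 to 4.34 in wild-type livers. Both lay below 6.54, the 95th percentile of 1108 olfactory receptor probe sets, which serve as a guide to background. Their differences were -0.03 and 0.02 (limma adjusted p = 0.787 and 0.920). A change of Slc7a11 below that level could not be read from these arrays. Among 11 other genes of glutathione synthesis and recycling, 7 had higher and 4 lower means, with a median difference of 0.01, and 0 were called in limma (2 at an unadjusted p under 0.05). The 2 of lowest p were Oplah, 5-oxoprolinase, with 0.15, and Chac2, a glutathione-degrading cyclotransferase, with -0.22 (adjusted p = 0.170 each).

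In the thioredoxin branch, Txnrd1, the cytosolic thioredoxin reductase, was at 9.66 to 9.77 in double knockout and 9.63 to 9.79 in wild-type livers. The difference was 0.01 with an interval of -0.09 to 0.10 (limma adjusted p = 0.967). Srxn1, sulfiredoxin, which repairs over-oxidized peroxiredoxins, had levels of 10.02, 9.73, 10.01, 10.04 and 10.03 in double knockout livers, against 9.72, 9.97, 9.68, 9.84 and 9.78 in wild-type livers. Of the double knockout livers 4 lay above every wild-type liver, and replicate 2 lay among the wild-type livers. The difference of 0.17 (SE 0.07, 95% interval 0.01 to 0.32) was not called (limma adjusted p = 0.298), and without double knockout replicate 2 it was 0.23 (adjusted p = 0.123). Of 9 other thioredoxin and peroxiredoxin genes measured, 5 had higher and 4 lower means, with a median of 0.02 and 0 called in limma (3 at an unadjusted p under 0.05). Lowest in p were Prdx4, the peroxiredoxin of the endoplasmic reticulum, with -0.25 (adjusted p = 0.0701), and the reductase Txnrd3, with -0.22 (adjusted p = 0.159). Prdx1 occurred only on probe sets shared between genes, with differences of 0.08, 0.03 and -0.04 (limma adjusted p = 0.329, 0.942 and 0.803).

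Among the detoxifying enzymes, Nqo1, the quinone reductase most often used as a marker of NRF2 activity, leaned the other way from Osgin1. Its levels were 6.76, 6.56, 6.84, 6.78 and 6.61 in double knockout livers, against 6.93, 6.99, 6.83, 6.89 and 6.99 in wild-type livers. The groups touched at 1 pair of livers, double knockout replicate 3 and wild-type replicate 3. Nqo1 averaged 6.71 ± 0.12 in double knockout and 6.93 ± 0.07 in wild-type livers (SD, n = 5 each), a difference of -0.22 (SE 0.06, 95% interval -0.35 to -0.09, limma adjusted p = 0.113). These levels are not far above the background guide of 6.54. The difference was negative in all alternatives run, from -0.25 to -0.18.

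Ephx1, microsomal epoxide hydrolase, was at 12.61 to 12.71 in double knockout and 12.64 to 12.79 in wild-type livers, a difference of -0.07 with an interval of -0.17 to 0.02 (limma adjusted p = 0.453). Of the wild-type livers 4 lay above every double knockout liver. Cbr3, a carbonyl reductase, had levels of 5.17 to 5.66 in double knockout and 5.45 to 5.72 in wild-type livers, below the background guide, and a difference of -0.09 (limma adjusted p = 0.714), which was -0.009 without double knockout replicate 1. Ephx1 is also known as a target of the nuclear receptor CAR. In a list of 11 genes of CAR, PXR and the aryl hydrocarbon receptor, 3 were higher and 8 lower by their means in double knockout livers, the median being -0.02 and 0 called in limma (2 at an unadjusted p under 0.05). Cyp3a11, a PXR target, had 0.34 (adjusted p = 0.0751) and Nr1i3, the gene of CAR itself, -0.22 (adjusted p = 0.172).

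The only called genes of the wider pathway were 2 reductases that fell. Nqo2, a paralog of Nqo1, had levels of 9.65, 9.64, 9.60, 9.54 and 9.59 in double knockout livers, against 10.24, 10.00, 9.91, 10.18 and 9.83 in wild-type livers. The groups did not overlap, and the fall was 0.43 on the log2 scale, as 9.60 ± 0.04 in double knockout and 10.03 ± 0.17 in wild-type livers (SD, n = 5 each, limma adjusted p = 0.0235). Akr7a5, an aldo-keto reductase of aflatoxin aldehyde, was at 10.74 to 11.02 in double knockout and 11.14 to 11.27 in wild-type livers, also without overlap, with a difference of -0.27 (SE 0.05, limma adjusted p = 0.0457). Groups without overlap were found for 3.9% of all probe sets. Among the pathway genes they were also found for Abcc3, Gstm6 and Prdx4, lower in double knockout livers, and for Abcc4, higher. The Nqo2 call was lost in 5 of the 10 fits without 1 array, those without double knockout replicate 3, 4 or 5 or wild-type replicate 2 or 4 (adjusted p up to 0.0670), and the Akr7a5 call in 9, all but the one without double knockout replicate 1 (adjusted p up to 0.123). Both calls were also lost with every row tested and without the 4 livers of high pancreas markers (adjusted p = 0.0973 for Nqo2 and 0.190 for Akr7a5). The whole list of other detoxifying enzymes and exporters held 13 measured genes, of which 4 had higher and 9 lower means, with a median of -0.04. Mean levels lay below the background guide for 2 of them, while 14078 of the 25335 probe sets lay above it. At an unadjusted p under 0.05 there were 6 of these 13, 2 higher and 4 lower, beside 15.1% of all probe sets. This was more than in any other of the 10 pathway lists. Besides Nqo2 and Akr7a5, the lower ones were Abcc3, with -0.24, and Ephx2, with -0.13 (limma adjusted p = 0.0738 and 0.152). The higher ones were Cbr1, with 0.34, and Abcc4, with 0.33 (limma adjusted p = 0.127 and 0.0945). A second Cbr1 probe set had 0.28 (limma adjusted p = 0.104).

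Glutathione S-transferases, which join glutathione to electrophiles, were lower more often than higher. Of 11 measured genes 9 were lower and 2 higher by their means in double knockout livers, the median difference being -0.04, and 0 were called in limma (2 at an unadjusted p under 0.05). Gstm6 had -0.29 (adjusted p = 0.0594) and Gstp2 -0.25 (adjusted p = 0.299). These genes resemble each other closely, so a probe set may also read a paralog. Gsta1 and Gsta2 occurred on 3 probe sets shared between genes, with differences of -0.16, -0.13 and 0.06 (limma adjusted p = 0.234, 0.352 and 0.753).

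The regulators of NRF2 differed little. Nfe2l2 averaged 10.81 ± 0.13 in double knockout and 10.89 ± 0.10 in wild-type livers, a difference of -0.08 with an interval of -0.23 to 0.07 (limma adjusted p = 0.659). Without double knockout replicate 1 the difference was -0.03. Keap1 was at 8.72 ± 0.04 and Bach1 at 9.70 ± 0.08 in double knockout livers, against 8.64 ± 0.06 and 9.66 ± 0.13 in wild-type livers (SD, n = 5 each, limma adjusted p = 0.428 and 0.829). A second Keap1 probe set had a difference of -0.08, opposite in sign to the 0.08 of the first. The 11 measured genes of NRF2 control had a median difference of -0.001, with 5 higher and 6 lower means and 0 called in limma (2 at an unadjusted p under 0.05). These 2 were Nfe2l1, an NRF2-related factor, with -0.12 (adjusted p = 0.205), and the kinase Gsk3b, with 0.14 (adjusted p = 0.217). NRF2 activity rests largely on protein stability, which RNA levels do not measure.

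Supporting enzymes and ATF4 targets showed no called gene either. NADPH-supplying enzymes had 2 higher and 2 lower means among 4 measured, with -0.17 for Idh1 (limma adjusted p = 0.260) and 0.08 for Taldo1 (adjusted p = 0.493), and 1 gene at an unadjusted p under 0.05. Superoxide dismutases and catalase had 1 higher and 3 lower means, from -0.08 for Sod3 to 0.002 for Sod1, with -0.06 for Cat (limma adjusted p = 0.502) and 0 genes at an unadjusted p under 0.05. ATF4 targets, listed because ATF4 also controls Slc7a11, had 9 higher and 3 lower means among 12, with a median of 0.10. In limma 0 were called, and 5 had an unadjusted p under 0.05, all higher, beside 7.52% of all probe sets higher. The lowest p of this list were those of Atf5, with 0.26 (adjusted p = 0.0829), and Vldlr, with 0.20 (adjusted p = 0.156). Asns had the largest difference, 0.60 (limma adjusted p = 0.230), with wild-type replicate 4 above every double knockout liver. Over all 10 lists, 91 different genes were measured, 41 with higher and 50 with lower means. Of these, 2.2% were called, both lower, beside 0.553% of all probe sets called lower and 0.332% called higher. At an unadjusted p under 0.05 there were 24 of the 91, or 26.4%, beside 15.1% of all probe sets. Mean levels were above the background guide for 84 of the 91, against 14078 of the 25335 probe sets. These shares therefore compare sets of unlike level.

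**Figure D4:**
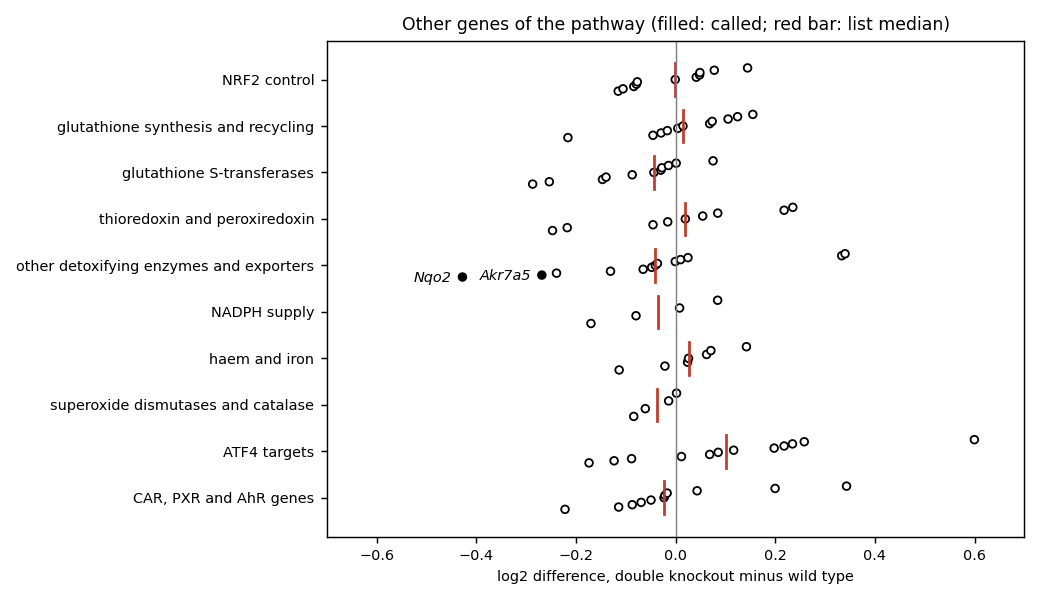
Log2 difference, double knockout minus wild type (horizontal axis), for each measured gene of 10 lists of the NRF2 pathway and its neighbours. Filled points passed a limma adjusted p of 0.05 over all probe sets, red bars are list medians; Nqo2 and Akr7a5, both lower in double knockout livers, are the 2 filled points.

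Whether the other members followed Osgin1 from liver to liver was examined with each liver's deviation from its group mean, since the groups differ in Osgin1. Osgin1 deviated by -0.48 to 0.48 in double knockout livers and by -0.37 to 0.63 in wild-type livers. Double knockout replicate 2, highest in Osgin1 of all livers, was lowest among double knockout livers in Srxn1, Txnrd1, Nqo1 and Hmox1. It was highest among them in the main probe set of Slc7a11, which lay below the background guide and carries little signal. Double knockout replicate 4, next highest in Osgin1 at 12.53, was instead highest among double knockout livers in Srxn1, Hmox1 and Ephx1. Wild-type replicate 1, highest in Osgin1 among wild-type livers, was lowest among them in Hmox1 and Txnrd1 and highest in Gclc. Over the 10 livers, Pearson's r with Osgin1 ranged from -0.40 for Srxn1 to 0.53 for Ephx1 among 9 genes. Single livers moved these values: r for Srxn1 was -0.10 without double knockout replicate 2, and r for Gclc, 0.32 over all livers, was 0.75 without double knockout replicate 5 and 0.04 without wild-type replicate 1. None of the 9 relations passed, with Benjamini-Hochberg adjusted p from 0.577 to 0.913 (exact permutation within groups, two-sided), and 0 had an unadjusted p under 0.05. For Ephx1 the exact permutation p of r was 0.129, and Spearman's rho was 0.61 (exact permutation p = 0.0722, adjusted p = 0.649). Without double knockout replicate 2 and wild-type replicate 1, the livers farthest from the median deviation of Osgin1, r for Ephx1 was 0.73 (exact permutation p = 0.0156, adjusted p = 0.141). For Hmox1 r was -0.39 (exact permutation p = 0.286) and rho -0.47 (exact permutation p = 0.148, adjusted p = 0.664), and without those 2 livers r was -0.09.

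**Figure D5:**
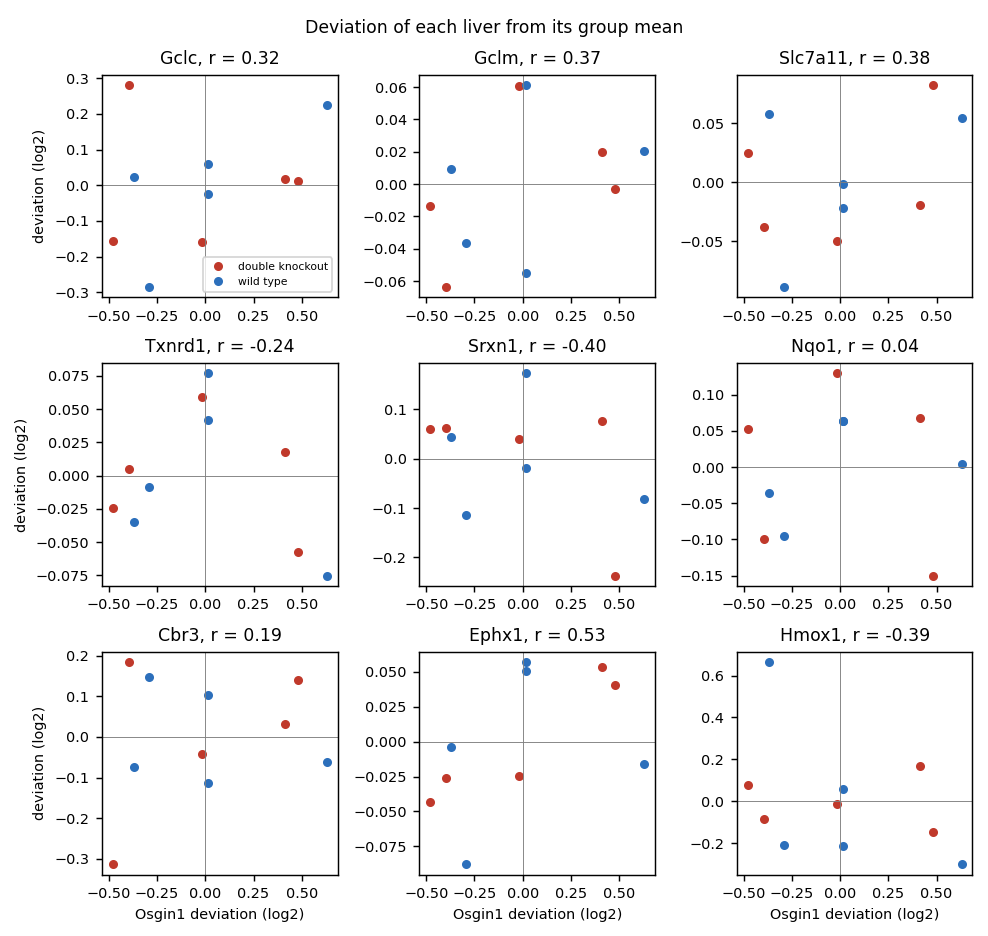
Deviation of Osgin1 from its group mean (horizontal axes, log2) against that of each other member (vertical axes, log2, scales differ) in 5 double knockout and 5 wild-type livers. Points scatter without a common slope, with r from -0.40 for Srxn1 to 0.53 for Ephx1.

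The 5 genes most like Osgin1 in these deviations did not include another member. Slc7a11 and Cbr3, below background, were not among the probe sets compared. With so few members among so many probe sets, this says little about whether members followed Osgin1. Among 11907 probe sets above background with 1 gene each, the 5 highest r over the 10 livers were those of Gpr182, a receptor known from endothelial cells, with 0.96, the tubulin Tubb5 with 0.91, Ficd, which modifies the chaperone BiP in the endoplasmic reticulum, with 0.89, the F-box gene Fbxo4 with 0.88 and the diacylglycerol kinase Dgkh with 0.88. Their differences between genotypes ran from -0.03 for Fbxo4 to 0.27 for Ficd (limma adjusted p = 0.762 and 0.120). These are the highest of many values over few livers and are given as a description.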

How the data were processed

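The table that the authors deposited gives a log2 level for each probe set and liver. The submitters' processing notes name Affymetrix Expression Console, while its algorithm and version were not given in the sources used here. Quartiles of the arrays differed by at most 0.046, as after a normalization between arrays, and the values were used without change. Scanner files and scan dates were not analysed here. The number of arrays limits the precision.

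Of 41345 rows, 23521 had 1 gene symbol in the platform annotation, 1814 several and 16010 none. The 25335 rows with a symbol were tested in limma 3.58.1 under R 4.3.3 (lmFit, eBayes, group as the only term, two-sided), with Benjamini-Hochberg adjustment over all of them and a call at an adjusted p under 0.05. Residual degrees of freedom were 8, and eBayes added 3.96 prior ones. A gene was represented by its row of highest mean. In simulated arrays for this comparison with 25335 rows, 53.7% of rows changed by 0.3, 92.5% of those changed by 0.5 and 100% of those changed by 1 were called. The changed rows were drawn at random and each kept its own spread, so these rates do not hold for genes of wide spread. Osgin1 (SE 0.22) and Hmox1 (SE 0.15) spread more than Gclm and Txnrd1 (SE 0.04 each). Rates for single members were not simulated.

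Named were all members, the knocked-out genes, Nfe2l2, Keap1 and Bach1, in each list up to 4 called genes or else the 2 of lowest p, and the 5 genes most like Osgin1. Outside this rule, Cbr1, Abcc3, Abcc4, Ephx2, Asns and Sod1 are also named, as are some cell type markers. Gsta1, Gsta2 and Prdx1 are named from shared probe sets. The members and lists were chosen with earlier results of these data known. Of 101 genes in 10 pathway lists, 91 had a row of their own. Relations with Osgin1 used 14400 orders of the arrays within groups. Alternatives were other priors, weights, scalings, filters, rows and thresholds, the replicate number as a block, leaving out each array, and leaving out the 4 pancreas-marker arrays. Promoter sequences are from RefSeq, GRCm38.p6.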

Additional observations from a re-analysis of the deposited data

Results flagged for a closer look

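Srxn1 in double knockout replicate 2, at 9.73, lay apart from the other 4 double knockout livers, at 10.01 to 10.04. This gap was 0.885 of the group's range, above the critical value of 0.71 for 5 samples in Dixon's test. Of 72 groups of 5 livers examined this way 1 stood out, and chance alone flags about 1 in 20.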

How the results depend on the processing

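Over all probe sets, 224 calls became 75 with every row tested, 377 with rows above background, 585 at an adjusted p under 0.10, 76 with the replicate block, 68 without the 4 pancreas-marker arrays (double knockout replicates 1 and 2, wild-type replicates 4 and 5) and 64 to 253 without 1 array. Of the 10 members, 0 were called higher, 1 without the 4 pancreas-marker arrays and 0 to 1 without 1 array, and 0 were called lower under every alternative. Osgin1 ranged from 0.721 to 0.999 without 1 array and was called only without wild-type replicate 1 (adjusted p = 0.0451, limma), with adjusted p from 0.0691 to 0.298 under the other 10 alternatives and up to 0.217 without 1 array. Sign turned for Gclc (0.0605 without the 4 pancreas-marker arrays, -0.0857 to 0.0413 without 1 array), Txnrd1 (-0.0123 to 0.0257 without 1 array), Slc7a11 (0.0175 on its other row), Nfe2l2 (0.0151 without the 4 pancreas-marker arrays) and Bach1 (-0.0055 to 0.0718 without 1 array). Without 1 array, Cbr3 ran from -0.1336 to -0.009, Slc7a11 from -0.0567 to -0.02 and Nfe2l2 from -0.107 to -0.028, with no change of sign. Pathway genes called lower numbered 2, but 1 after quantile normalization, 5 with rows above background, 0 with every row tested, 0 without the 4 arrays, 5 at an adjusted p under 0.10 and 0 to 3 without 1 array; called higher were 0, but 1 with rows above background, 3 at 0.10 and 0 to 1 without 1 array. With fewer or more rows tested, or fewer arrays, the construction itself moves the adjusted p; other causes were not tested. Relations with Osgin1 past the threshold stayed at 0 throughout. Without the 2 livers farthest in Osgin1, r turned for Slc7a11 (-0.19), Txnrd1 (0.62) and Srxn1 (0.24); without the 4 pancreas-marker arrays for Cbr3 (-0.82) and Hmox1 (0.32); and without 1 array for Txnrd1 (-0.36 to 0.15), Nqo1 (-0.13 to 0.45) and Cbr3 (-0.27 to 0.43). Without 1 array r kept its sign for Srxn1 (-0.56 to -0.10), Gclc (0.04 to 0.75), Slc7a11 (0.17 to 0.61), Hmox1 (-0.53 to -0.18), Gclm (0.22 to 0.45) and Ephx1 (0.44 to 0.75).

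Same-numbered arrays did not deviate together, with correlations of their deviations of -0.48 to 0.13. These values do not show whether same-numbered livers were matched in some other way. With the replicate block, 0 of the 10 members and 0 pathway genes were called, and Osgin1 had 0.84 (adjusted p = 0.222). Differences of Slc7a11 and Cbr3, below the background guide, are limited by signal.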
